A study of Mus musculus with 7 samples.

Results

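The semaphorins, their plexin receptors and the neuropilin coreceptors were followed in libraries labelled as neurons of il4ra fl/fl.Syn cre mice. Genes were taken by symbol alone, as the lettered members of the Sema3 to Sema7 classes, the numbered A, B, C and D plexins, and Nrp1 and Nrp2. This gave 31 of the 46333 genes in the count tables, namely 20 semaphorins, 9 plexins and 2 neuropilins.

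In the 3 cre+ libraries (SynCre + IL-4R fl/fl), the mice carried floxed il4ra alleles and Syn cre, a transgene in which the synapsin 1 promoter drives Cre recombinase in neurons. The 4 cre- libraries (SynCre - IL-4R fl/fl) came from mice with the same floxed alleles and no Cre, so that the presence of Cre and the loss of the interleukin-4 receptor alpha chain cannot be told apart. Per the study's methods, whole brains of adult female mice were dissociated, and cells bound by antibodies to microglia, oligodendrocytes and astrocytes were removed on magnetic beads. Endothelial cells were not among the named targets of this depletion. The study checked the isolates by flow cytometry, with an endothelial antibody among those used, and reported a high neuronal purity. That purity is a share of cells, whereas the marker sums given below are of RNA. The comparison asks which transcripts differ in neurons without the receptor, and the replicates are described as littermates.

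Semaphorins are guidance ligands that steer growing axons, dendrites and blood vessels. Class 3 semaphorins are secreted and mostly act through a neuropilin that holds the ligand and a plexin that carries the signal, whereas classes 4 to 6 span the membrane and class 7 is held there by a lipid anchor, and these usually bind plexins directly. Plexins pass the signal on to small GTPases and thereby to the cytoskeleton, and neuropilins are also coreceptors for vascular endothelial growth factors (VEGF).

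Libraries held 68213223 to 94376841 counts, and levels are given as CPM, the counts scaled to library size with trimmed mean of M values (TMM). All 31 genes were kept by the filter on low counts, with 154 counts at the lowest (Sema3a in cre+ replicate 1) and 100657 at the highest (Sema7a in cre+ replicate 1). Il4ra was at 24.4 to 29.5 CPM in cre+ and 20.03 to 29.6 CPM in cre- libraries, a whole-gene value that includes exons outside the deleted part and therefore does not check the genotype. The labels name neurons, and none of 15 neuron markers was at 0 in any library. Endothelial RNA was abundant in all libraries, with 15 endothelial markers summing to 14715 to 20761 CPM in cre+ and 9758 to 13715 CPM in cre- libraries, whereas the neuron markers summed to 1443 to 2798 CPM in cre+ and 2678 to 4459 CPM in cre- libraries. In such bulk samples, fewer cells of a type and less RNA per cell cannot be told apart. The words cre+ neurons and cre- neurons below therefore name libraries by their labels, and not the cell type that a transcript came from.

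DESeq2 called 6 of 12 transmembrane semaphorins and Plxna3 lower in cre+ than in cre- libraries, and Sema7a, Nrp1 and the secreted Sema3c and Sema3g higher. The edgeR log2 fold changes of these genes were -1.13 to -0.51 and 0.65 to 0.76, and all fold changes given here are those of edgeR. Each SE was derived from the edgeR fit, as the absolute log2 fold change divided by the square root of the F statistic. With the quasi-likelihood test of edgeR, which was the main test, 0 of the 31 genes and 0 of 21542 tested genes (0%) had an adjusted p under 0.05. The lowest adjusted p among the 31 was 0.0939. At an unadjusted p under 0.05, 6 of the 31 were higher and 7 were lower, against 10.2% and 9.75% of all tested genes. With DESeq2, the tool the study used, the calls were 4 of the 31 genes higher and 7 lower (12.9% and 22.6%) at an adjusted p of 0.05, against 6.7% higher and 5.48% lower of 16345 genes with an adjusted p. Genes are described below as called when DESeq2 called them, and none of these calls passed the main test.

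Of the 11 called genes, 9 had no overlap between the cre+ and the cre- libraries, and these were all of the 31 without overlap. They comprised 3 higher and 6 lower genes (9.68% and 19.4%), against 8.94% and 9.72% of all tested genes. Without cre+ replicate 2, 7 genes were higher without overlap (13.3% of all tested genes), without cre+ replicate 1 there were 5 (12.8% of all), and without cre+ replicate 3, 10 were lower (16.5% of all). The median log2 fold change, always given as cre+ minus cre-, was -0.10 over the 31 genes and -0.04 over all tested genes. The heat map of levels by library places the shifts side by side.

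**Figure D1:**
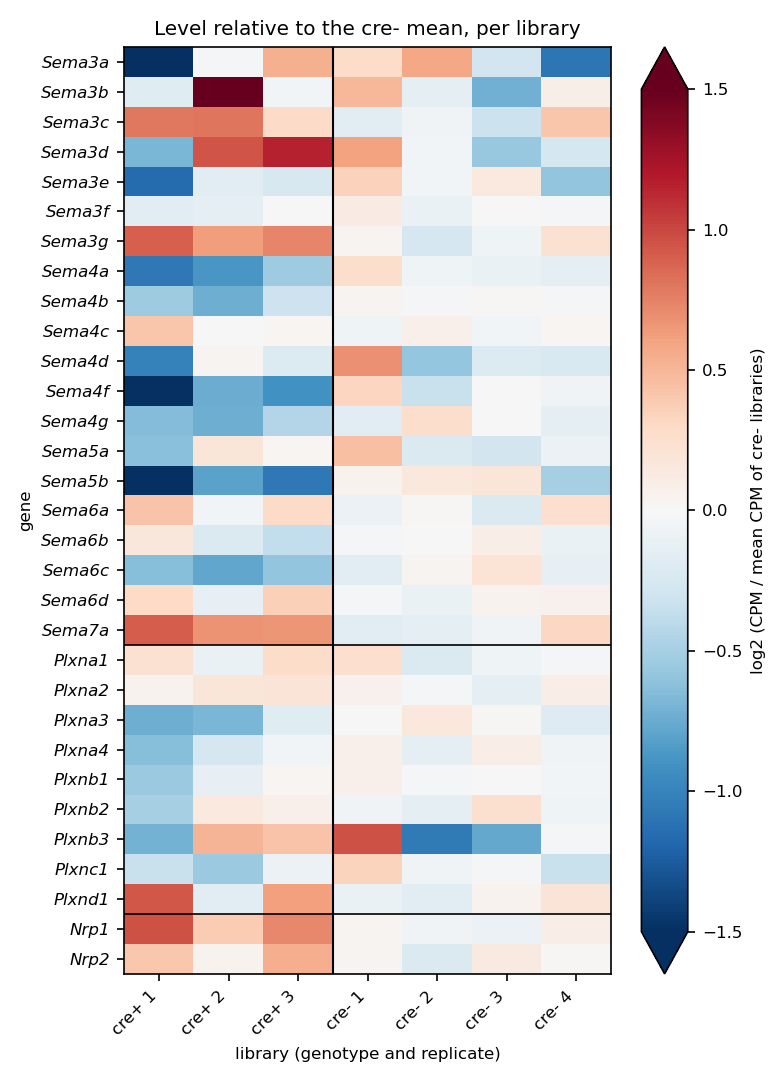
Level of each of the 31 genes in each library as the log2 ratio of its CPM to the mean CPM of the cre- libraries, with the 3 cre+ libraries left of the vertical line and the 4 cre- libraries right of it, and semaphorins, plexins and neuropilins separated by horizontal lines. The genes whose genotypes did not overlap are red in the cre+ columns (Sema3g, Sema7a, Nrp1) or blue (Sema4a, Sema4b, Sema4f, Sema4g, Sema5b, Sema6c). Colour alone does not mark them, since Sema3c (red) and Plxna3 (blue) overlapped between genotypes.

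The start regions of 2 genes called higher and 2 called lower are shown, since the letters next to a transcript start are what a motif search reads. STAT6, which the interleukin-4 receptor activates, favours the pair TTC and GAA with 4 bases between them, and Sp1-type factors bind the GC box. The 250 bases before the transcript start that GENCODE M39 annotates for Sema7a (chr9:57847125-57847374, plus strand), Sema3g (chr14:30939558-30939807, plus strand), Sema4f (chr6:82916762-82917011, minus strand) and Plxna3 (chrX:73372422-73372671, plus strand) were read from GRCm39, 5′ to 3′. Sema7a and Sema3g were called higher, Sema4f and Plxna3 lower. Capitals mark matches to GGGCGG on either strand (CCGCCC on the other strand) or to TTC and GAA around 4 free bases.
Sema7a: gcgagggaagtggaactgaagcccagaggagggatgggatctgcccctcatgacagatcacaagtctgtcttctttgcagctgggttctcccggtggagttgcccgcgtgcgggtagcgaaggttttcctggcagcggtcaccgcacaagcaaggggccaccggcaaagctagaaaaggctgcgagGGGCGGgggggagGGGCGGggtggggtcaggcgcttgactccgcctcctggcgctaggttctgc
Sema3g: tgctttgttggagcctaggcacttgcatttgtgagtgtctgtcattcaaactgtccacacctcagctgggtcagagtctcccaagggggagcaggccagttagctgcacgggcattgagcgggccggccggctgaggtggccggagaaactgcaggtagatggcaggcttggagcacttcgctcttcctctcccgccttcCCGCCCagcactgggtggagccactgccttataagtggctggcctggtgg
Sema4f: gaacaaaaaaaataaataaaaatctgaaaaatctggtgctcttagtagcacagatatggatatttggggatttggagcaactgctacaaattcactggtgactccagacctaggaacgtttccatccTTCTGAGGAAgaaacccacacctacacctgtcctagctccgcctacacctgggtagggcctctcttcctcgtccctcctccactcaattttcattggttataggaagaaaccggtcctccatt
Plxna3: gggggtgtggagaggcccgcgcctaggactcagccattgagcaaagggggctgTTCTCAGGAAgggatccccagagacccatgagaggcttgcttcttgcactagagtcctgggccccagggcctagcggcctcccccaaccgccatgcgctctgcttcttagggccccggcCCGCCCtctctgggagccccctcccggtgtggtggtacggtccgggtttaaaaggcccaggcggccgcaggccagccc
In these windows the GC box matched in Sema7a, Sema3g and Plxna3, and the STAT6-type motif in Sema4f and Plxna3. These were the only 2 of the 11 called genes with the STAT6-type motif. The other genes called lower, Sema4a, Sema4b, Sema4g, Sema5b and Sema6c, had no match to it. The 4 windows shown therefore do not stand for all called genes. Over all 31 genes, 23 windows (74.2%) held GGGCGG, against 36.3% of 21757 windows of the same length from protein-coding genes. The GC content of the 31 windows was 43.6% (Sema3c) to 76% (Plxna4), and its part in this difference was not tested. The STAT6-type motif was in 4 windows (12.9%), those of Sema3e, Sema3f, Sema4f and Plxna3, against 5.9%, and 2 of these 4 genes were called. CCGGAA was in 3 windows (12.4% of all) and CACGTG in 0 (6.26% of all), both strands searched and matches of different motifs allowed to overlap. A match is a run of letters and not a measured binding site.

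Sema7a, the single class 7 semaphorin, promotes axon growth through integrin beta 1 and also binds Plxnc1. It had 1138, 967 and 953 CPM in cre+ neurons, against 536, 548, 583 and 749 CPM in cre- neurons. All cre+ libraries lay above all cre- libraries, with cre- replicate 4 nearest. The log2 fold change was 0.75 ± 0.15 (SE), with an edgeR adjusted p of 0.0939 and a DESeq2 adjusted p of 0.000354. The gene (ENSMUSG00000038264) lies on chromosome 9 at 57847395 to 57870148 (GRCm39) in the coordinates of the count tables, whose start is not that of GENCODE M39.

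Per kilobase of exon, Sema7a was also the most abundant of all 31 genes, at 307 CPM in cre+ and 182 CPM in cre- libraries. It made up 65.9, 61.8 and 64.4% of the summed semaphorin level per kilobase in the cre+ libraries and 51.0, 53.2, 55.4 and 58.5% in the cre- libraries, with no overlap between genotypes, as for Sema7a itself. The exon length used merges all annotated exons, 3321 bases for Sema7a, 15653 for Sema3a and 20453 for Sema5a. These shares and the order of genes therefore depend on the annotated exons. The most abundant plexin on this scale was Plxnb2, at 38.5 CPM per kilobase in cre+ and 40.2 in cre- libraries, and Sema3a was lowest, at 0.403 and 0.453. In the cre- order of the 31 genes, 6 of 30 neighbouring pairs had libraries that did not overlap, among them Sema7a over Plxnb2 and Plxnb2 over Sema3c. Sema3c, Plxnd1, Sema3g and Plxna3 followed, and each of these overlapped its neighbour among them.

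**Figure D2:**
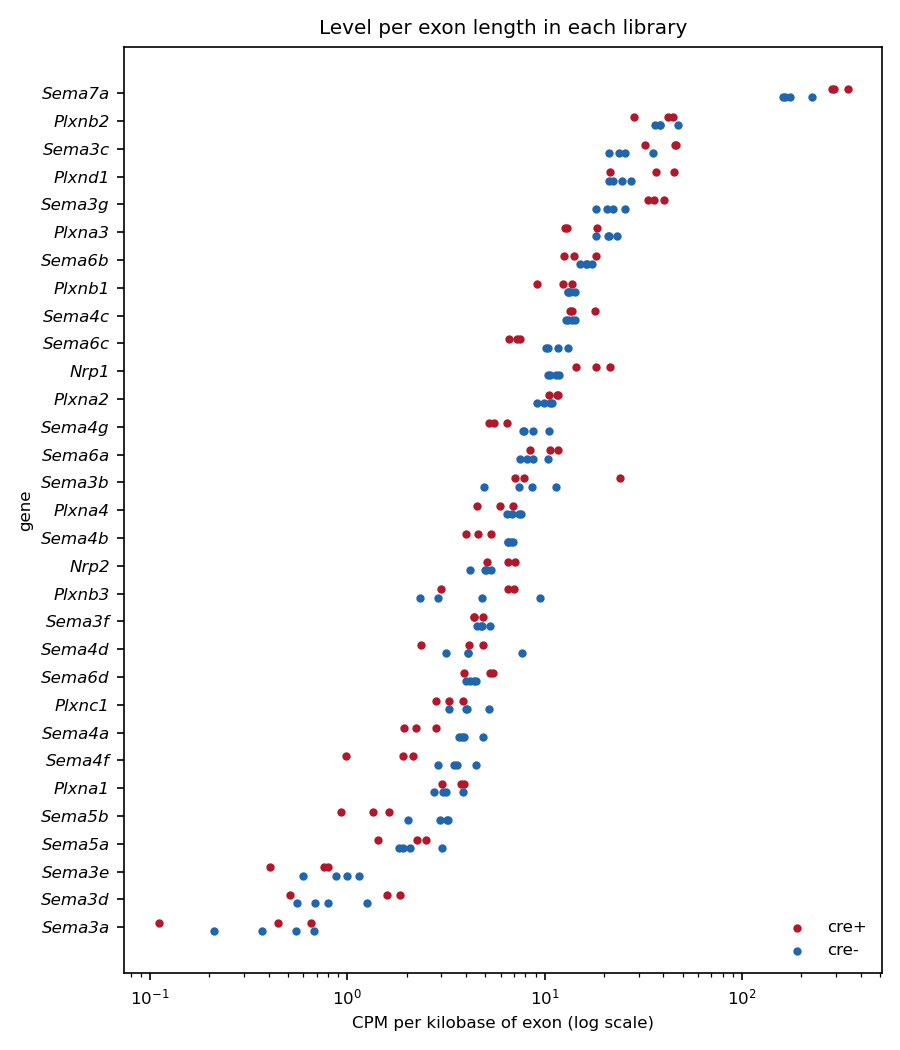
Level of each of the 31 genes as CPM per kilobase of exon on a log axis, with 1 point per library (cre+ red, above; cre- blue, below) and genes ordered by the cre- mean. Sema7a stands apart at the top, at 307 in cre+ and 182 in cre- libraries, and Sema3a is lowest.

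Among the 7 secreted class 3 semaphorins, 2 were called higher and 0 lower, against 6.7% and 5.48% of all genes. Sema3g, which is made by vessels and acts through Nrp2, had 184, 152 and 164 CPM in cre+ neurons, against 101, 82.8, 94.2 and 116 CPM in cre- neurons. The genotypes did not overlap, and the log2 fold change was 0.76 ± 0.13 (SE, DESeq2 adjusted p = 0.000173). Sema3c, a ligand for both neuropilins, had 374, 378 and 263 CPM in cre+ neurons, against 194, 208, 173 and 289 CPM in cre- neurons. Here cre+ replicate 3 lay below cre- replicate 4, so the genotypes overlapped. The log2 fold change of Sema3c was 0.65 ± 0.20 (SE, DESeq2 adjusted p = 0.0336), and its call was lost when any of cre+ replicates 1 and 2 or cre- replicates 1, 2 and 3 was left out (highest adjusted p = 0.184).

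The remaining class 3 genes were not called. Sema3a, the classical repellent that collapses growth cones, averaged 6.31 ± 4.28 CPM in cre+ and 7.09 ± 3.19 CPM in cre- libraries (SD, n = 3 and 4). Sema3e, which binds Plxnd1 without a neuropilin, averaged 7.90 CPM in cre+ and 10.9 CPM in cre- libraries, and Sema3f, a ligand of Nrp2, averaged 25.7 and 27.5 CPM. In each of them the cre+ and cre- libraries overlapped. Sema3b and Sema3d averaged 64.1 and 11.8 CPM in cre+, against 39.9 and 7.40 CPM in cre- libraries, with SEs of 0.44 and 0.43 on log2 fold changes of 0.68 and 0.67. Sema3a, Sema3c, Sema3d and Sema3e lie on chromosome 5, and Sema3c alone of these was called.

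The 12 transmembrane semaphorins of classes 4, 5 and 6 included 6 genes called lower and 0 called higher, and the cre+ and cre- libraries of all 6 did not overlap. Over all genes, 5.48% were called lower and 9.72% were lower without overlap. Class 4 held 4 of them, out of 6 genes. Sema4a, a ligand of B and D plexins that is also known from immune cells, had 17.8, 20.4 and 25.8 CPM in cre+ neurons, against 44.6, 35.8, 34.9 and 33.9 CPM in cre- neurons. Its log2 fold change was -0.81 ± 0.16 (SE, DESeq2 adjusted p = 0.000914). Sema4f, which binds the postsynaptic scaffold PSD-95, had 6.57, 14.4 and 12.8 CPM in cre+ neurons, against 30.1, 19.2, 24.0 and 23.3 CPM in cre- neurons. With a log2 fold change of -1.10 ± 0.28 (SE, DESeq2 adjusted p = 0.00466), it was among the larger shifts, and cre+ replicate 1 was lowest.

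Sema4b, also a PSD-95 binding semaphorin, had 30.4, 26.5 and 35.5 CPM in cre+ neurons, against 45.6, 43.1, 44.8 and 43.1 CPM in cre- neurons. The cre- libraries lay within a narrow band above all cre+ libraries, and the log2 fold change was -0.52 ± 0.12 (SE, DESeq2 adjusted p = 0.0047). Sema4g, which acts with Sema4c through Plxnb2 in the developing cerebellum, had 51.9, 49.0 and 60.0 CPM in cre+ neurons, against 72.4, 97.9, 81.8 and 73.5 CPM in cre- neurons. Its log2 fold change was -0.60 ± 0.13 (SE, DESeq2 adjusted p = 0.00451). Sema4g shares 12.7% of its exon bases with Mrpl43 on the other strand, no source used here states whether counting used strand, and Mrpl43 itself averaged 33.3 CPM in cre+ and 31.5 CPM in cre- libraries. The calls of Sema4b and Sema4g were lost without cre+ replicate 2 (adjusted p = 0.0577 and 0.0658).

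The other class 4 genes were not called. Sema4c averaged 98.0 CPM in cre+ and 87.6 CPM in cre- libraries, and Sema4d, a ligand of Plxnb1 made in quantity by oligodendrocytes, averaged 48.8 ± 16.8 CPM in cre+ and 61.2 ± 25.6 CPM in cre- libraries (SD, n = 3 and 4). Their log2 fold changes were 0.16 ± 0.12 and -0.33 ± 0.34 (SE).

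In class 5, whose members carry thrombospondin repeats, Sema5b was called and Sema5a was not. Sema5b had 7.31, 12.8 and 10.6 CPM in cre+ neurons, against 23.3, 25.1, 25.4 and 15.9 CPM in cre- neurons. All cre+ libraries were lower, and at -1.13 ± 0.24 (SE, DESeq2 adjusted p = 0.000812) this was the largest log2 fold change of the 31 genes in the fit with genotype alone, and it was -0.56 ± 0.45 (SE) with the vascular covariate described below. Sema5a averaged 42.4 CPM in cre+ and 45.3 CPM in cre- libraries.

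In class 6, which mediates repulsion through A plexins, Sema6c had 78.3, 70.9 and 80.8 CPM in cre+ neurons, against 109.7, 126, 141 and 112 CPM in cre- neurons. It had the smallest DESeq2 adjusted p of the 31 genes, 9.37e-05, at a log2 fold change of -0.67 ± 0.11 (SE). Sema6a, Sema6b and Sema6d were not called, with log2 fold changes of 0.24, -0.12 and 0.20. The strip plots of CPM by library show the genes described so far beside the receptors that follow.

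**Figure D3:**
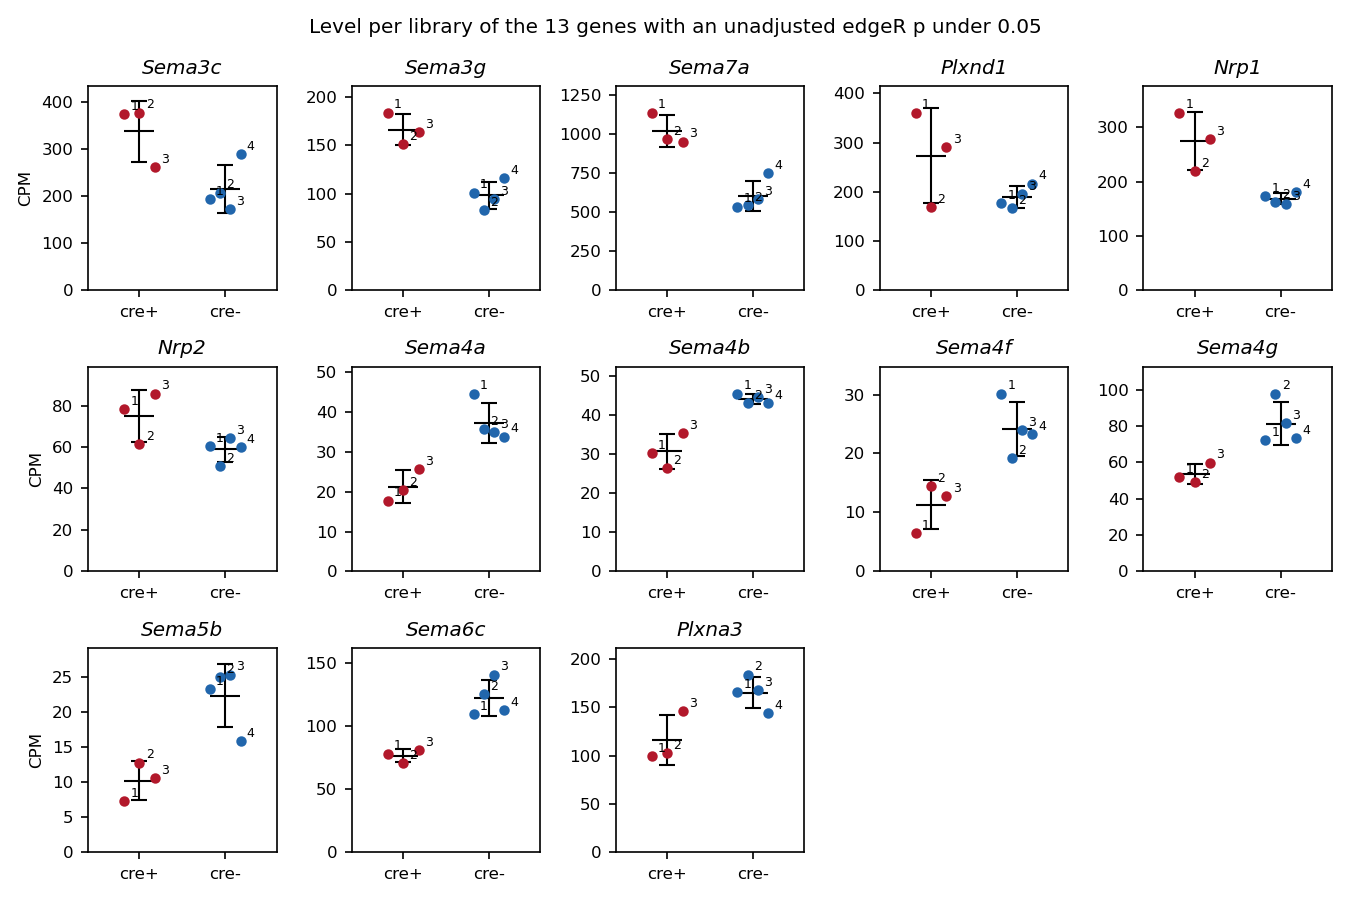
CPM in each library (y axis, from 0) of the 13 genes with an unadjusted edgeR p under 0.05, cre+ in red on the left and cre- in blue on the right, with replicate numbers beside the points and black bars for the mean and SD. Sema3c, Plxna3, Plxnd1 and Nrp2 overlap between genotypes, and the other 9 do not.

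Of the 9 plexins, 1 was called, and it was lower (11.1%, against 5.48% of all genes called lower). Plxna3, a receptor for class 3 semaphorins such as Sema3f, had 99.6, 103 and 146 CPM in cre+ neurons, against 165, 184, 168 and 144 CPM in cre- neurons. Replicate 3 of cre+ lay just above replicate 4 of cre-, and the log2 fold change was -0.51 ± 0.15 (SE, DESeq2 adjusted p = 0.0379). The call was lost when any of cre+ replicates 1 and 2 or cre- replicates 1, 2 and 3 was left out (highest adjusted p = 0.227). Plxnd1, a plexin of vessels and the receptor of Sema3e, had 361, 169.7 and 291 CPM in cre+ neurons, against 177, 168, 196 and 217 CPM in cre- neurons. Replicate 2 of cre+ fell among the cre- values, and the log2 fold change of 0.53 ± 0.23 (SE) was not called (DESeq2 adjusted p = 0.124). Without that replicate DESeq2 called Plxnd1 and Nrp2.

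The most abundant plexin per kilobase, Plxnb2, a receptor for class 4 semaphorins, had 233, 364 and 346 CPM in cre+ neurons, against 316, 296, 387 and 314 CPM in cre- neurons. Replicate 1 of cre+ was below all cre- libraries and the others fell among them, with a log2 fold change of -0.06 ± 0.17 (SE). Plxna1, Plxna2, Plxna4, Plxnb1, Plxnb3 and Plxnc1, the receptor of Sema7a, had log2 fold changes between -0.31 (Plxnc1) and 0.17 (Plxnb3), and none was called. Plxnc1 averaged 28.7 ± 4.58 CPM in cre+ and 35.6 ± 6.92 CPM in cre- libraries (SD, n = 3 and 4).

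Nrp1, which binds class 3 semaphorins and VEGF, was the more abundant neuropilin. It had 327, 219.8 and 278 CPM in cre+ neurons, against 174, 162, 158 and 181 CPM in cre- neurons. The genotypes did not overlap, and the log2 fold change was 0.70 ± 0.14 (SE, DESeq2 adjusted p = 0.00088). Nrp2 had 78.1, 61.3 and 85.7 CPM in cre+ neurons, against 60.6, 50.6, 64.5 and 59.8 CPM in cre- neurons. Replicate 2 of cre+ lay below cre- replicate 3, and at 0.35 ± 0.14 (SE) Nrp2 was not called (DESeq2 adjusted p = 0.119). Per kilobase, Nrp1 was 3.30, 2.83 and 2.56 times Nrp2 in the cre+ libraries and 2.26, 2.53, 1.94 and 2.39 times in the cre- libraries, without overlap.

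Markers of some other cell types moved with genotype beside these genes, and those of others did not. DESeq2 called 11 of 15 endothelial and 6 of 10 mural markers higher and 0 lower, with the mural marker Tagln at 0 in at least 1 library. Over all genes DESeq2 called 6.7% higher and 5.48% lower. Astrocyte markers summed to 1572 to 1773 CPM in cre+ and 902 to 1217 CPM in cre- libraries (5 of 10 called higher), and meningeal fibroblast markers to 516 to 1031 CPM in cre+ and 308 to 466 CPM in cre- libraries (5 of 10 called higher). Of the neuron markers, 6 of 15 were called lower and their sums overlapped between genotypes, whereas 10 immature neuron markers summed to 2120 to 3033 CPM in cre+ and 3327 to 3690 CPM in cre- libraries, with 6 called lower. Of 10 microglia markers 0 were called, and they summed to 769 to 1191 CPM in cre+ and 194 to 1799 CPM in cre- libraries. Of 8 oligodendrocyte precursor markers, 1 was called higher and 1 lower, and of 10 oligodendrocyte markers 3 were called higher. The sums of both of these lists overlapped between genotypes. The part of the neuronal, astrocyte, fibroblast, microglia and oligodendrocyte lineage markers in the shifts of the 31 genes was not tested.

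A fit with the mean level of the endothelial and mural markers as a covariate was run for the vascular markers. In that fit DESeq2 called 0 of the 31 genes, against 0.184% of 25564 genes higher and 0.27% lower, and edgeR gave 0 higher and 4 lower at an unadjusted p under 0.05, against 2.87% and 2.57% of all tested genes. Those 4 were Sema4a, Sema4b, Sema4g and Sema6c, with log2 fold changes of -1.01 ± 0.35, -0.80 ± 0.25, -0.77 ± 0.30 and -0.63 ± 0.27 (SE). The other called transmembrane genes, Sema4f and Sema5b, which had the most negative values without the covariate (-1.10 and -1.13), were at -0.61 ± 0.54 and -0.56 ± 0.45 (SE) with it. Sema7a and Sema3g kept positive values of 0.67 ± 0.34 and 0.54 ± 0.28 (SE), and Sema3c was at 0.72 ± 0.42 (SE). Nrp1 was at 0.18 ± 0.24 and Plxnd1 at -0.33 ± 0.43 (SE), and the sign of Plxnd1 was opposite to that without the covariate. The covariate was 0.05 to 0.55 in cre+ and -0.49 to -0.15 in cre- libraries on a centred log2 scale, so vascular marker level and genotype cannot be told apart for these genes.

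**Figure D4:**
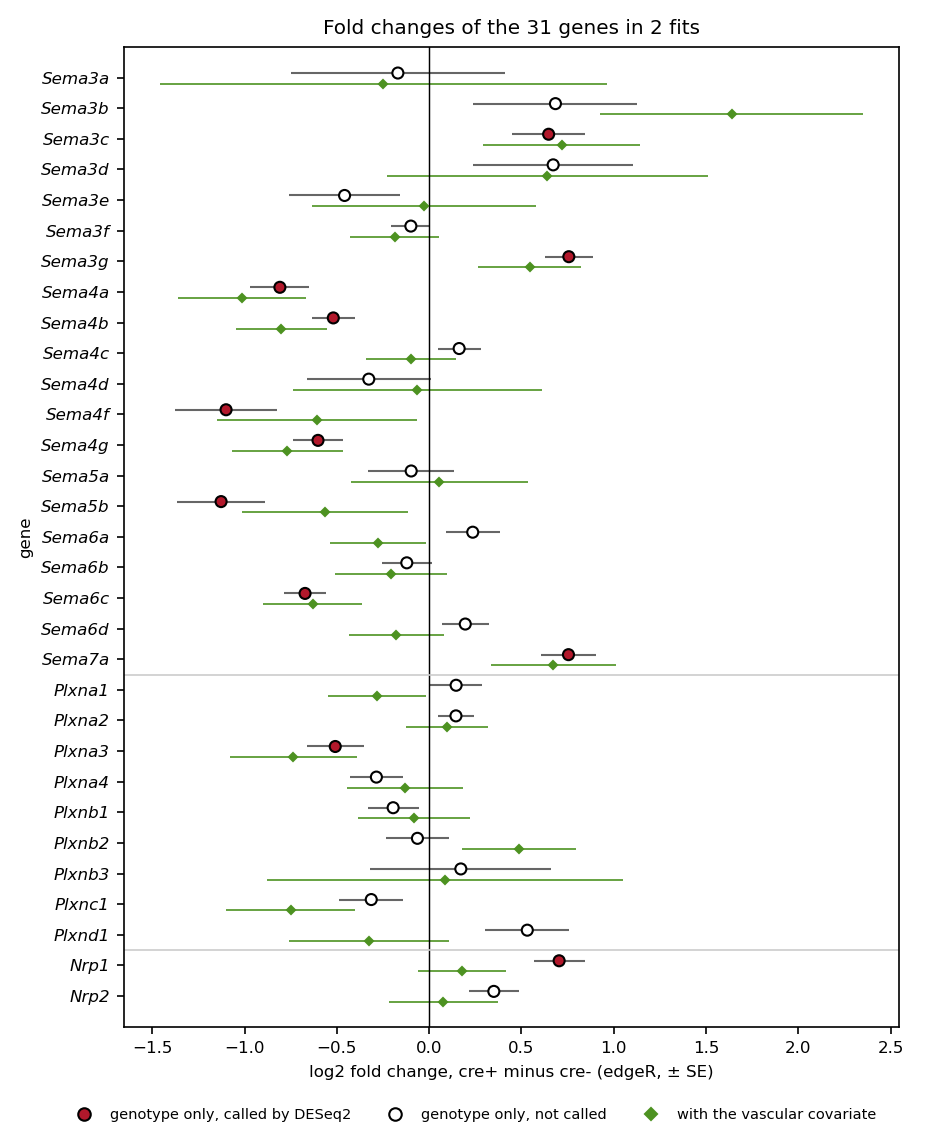
Log2 fold changes (cre+ minus cre-, edgeR, bars are SE) of the 31 genes with genotype as the single term (circles, filled where DESeq2 called the gene) and with the endothelial and mural marker covariate (green diamonds). Nrp1 is at 0.70 without and 0.18 with the covariate, whereas Sema6c is at -0.67 and -0.63.

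Partner genes of the pathway were taken from lists of 8 plexin coreceptors, 37 effectors and 8 VEGF ligands and receptors. Of these 53 genes, edgeR called 0, with 17 higher and 12 lower at an unadjusted p under 0.05, and DESeq2 called 11 higher and 5 lower (20.8% and 9.43%). Over all genes these shares were 10.2% higher and 9.75% lower at the unadjusted p, and 6.7% and 5.48% with DESeq2. Their median log2 fold change was 0.00, against -0.04 over all tested genes. These counts moved with single libraries, between 2 higher (without cre- replicate 3) and 12 higher, and between 0 lower (without cre+ replicate 1 or 2) and 8 lower (without cre+ replicate 3). With library totals in place of size factors, DESeq2 called 5 of the 53 higher and 10 lower, and of all genes 525 higher and 1773 lower, against 1095 and 895.

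Among the coreceptors, Itgb1, the integrin beta 1 chain through which Sema7a acts, had 402, 381 and 392 CPM in cre+ neurons, against 291, 229, 259.9 and 314 CPM in cre- neurons. The genotypes did not overlap, at a log2 fold change of 0.52 ± 0.12 (SE, DESeq2 adjusted p = 0.00532). L1cam, an axonal adhesion molecule that joins Nrp1 in the Sema3a receptor, had 37.8, 55.3 and 68.0 CPM in cre+ neurons, against 106, 88.4, 90.0 and 76.2 CPM in cre- neurons. It was lower in every cre+ library, at -0.75 ± 0.20 (SE, DESeq2 adjusted p = 0.0119). Erbb2, a receptor kinase that associates with B plexins, and Nrcam, an adhesion partner of Nrp2, were not called, at 0.51 ± 0.19 and -0.76 ± 0.30 (SE).

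Among the effectors, 7 were called higher and 4 lower (18.9% and 10.8%, against 6.7% and 5.48% of all genes). Arhgef12, an exchange factor that B plexins use to activate RhoA, averaged 319.6 ± 16.2 CPM in cre+ and 234 ± 17.5 CPM in cre- libraries (SD, n = 3 and 4), and Rhoa averaged 389 ± 30.9 and 273 ± 33.2 CPM. Both were without overlap, at log2 fold changes of 0.45 and 0.51. Tiam1, a Rac exchange factor, and Rap1b, a GTPase on which plexins act as GTPase-activating proteins, were at 0.51 ± 0.14 and 0.43 ± 0.12 (SE). The 4 lower genes, named after their values were seen, were Mical2, Pak1, Crmp1 and Cdk5, at log2 fold changes of -1.03, -0.79, -0.47 and -0.31. Crmp1 is a collapsin response mediator and Cdk5 the kinase that acts on such proteins in Sema3a signaling.

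The VEGF receptors, which share neuropilins with the class 3 semaphorins and are found on endothelial cells, were all called higher. Of the 8 VEGF genes 37.5% were called higher, against 6.7% of all genes. Flt4 had 189, 143 and 142 CPM in cre+ neurons, against 92.6, 93.4, 83.5 and 113 CPM in cre- neurons. Its genotypes did not overlap, at a log2 fold change of 0.72 ± 0.14 (SE, DESeq2 adjusted p = 0.00131). Flt1 and Kdr were at 0.76 ± 0.21 and 0.64 ± 0.22 (SE), with DESeq2 adjusted p of 0.00968 and 0.0458. The call of Kdr was near the threshold, and cre+ replicate 2 (490.0 CPM) lay just above cre- replicate 4 (488.8 CPM). Vegfc, a ligand of Flt4, was not called at 0.61 ± 0.22 (SE). With the endothelial and mural covariate, Flt1 was at 0.21 ± 0.43, Kdr at -0.04 ± 0.42 and Flt4 at 0.39 ± 0.29 (SE).

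**Figure D5:**
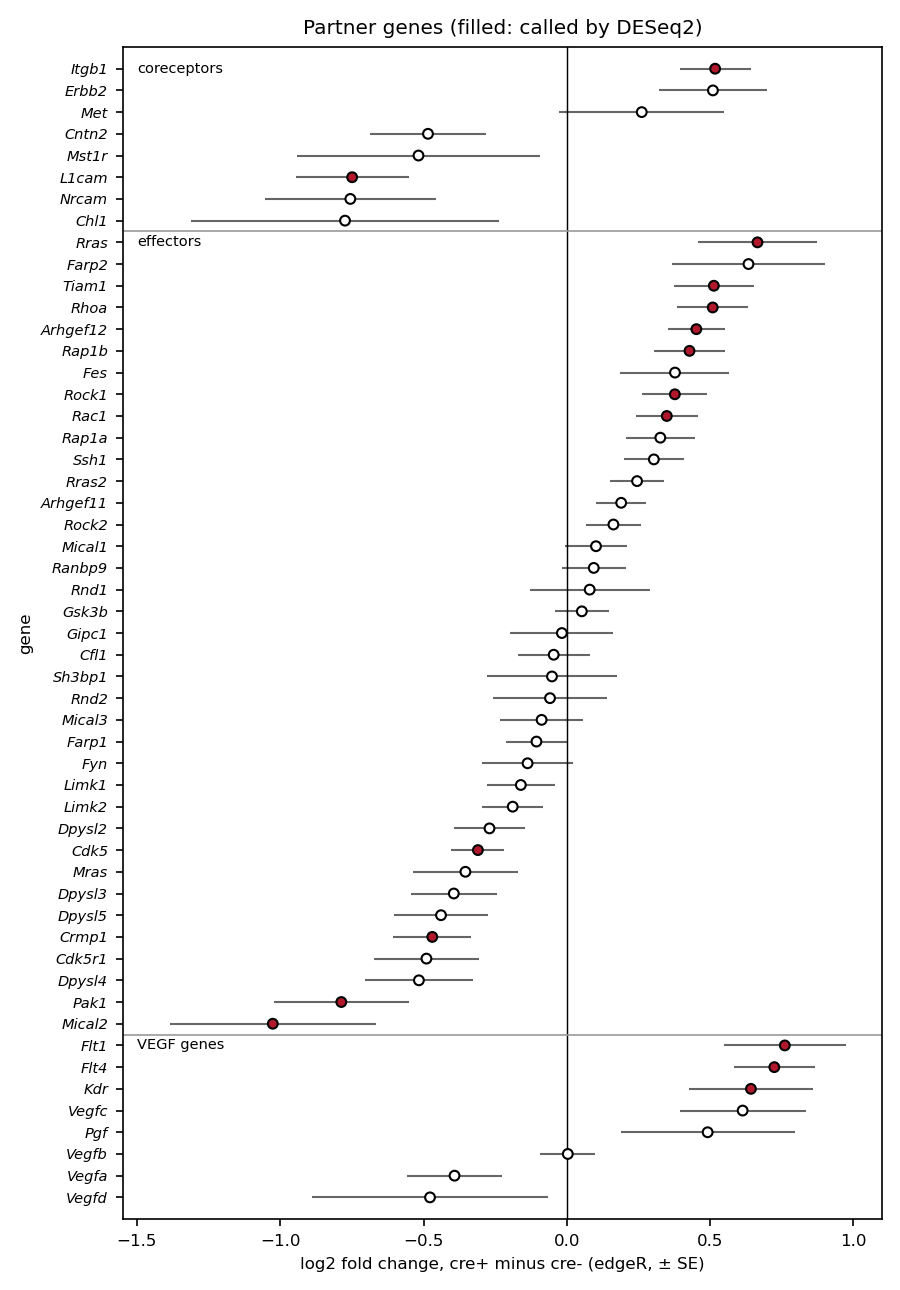
Log2 fold changes (cre+ minus cre-, edgeR, bars are SE) of the 53 partner genes, grouped as coreceptors, effectors and VEGF genes and ordered by value within each group, with filled circles for genes called by DESeq2. The 3 VEGF receptors lie between 0.64 and 0.76, and the largest negative value is that of Mical2, at -1.03.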

How the data were processed

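RNA of 7 libraries was sequenced as poly(A) libraries in paired reads. From the submitters' processing notes and the study's methods, fastp was used for trimming, STAR for alignment to GRCm39, SAMtools for filtering, StringTie for gene counts and DESeq2 for testing. No source used here gives versions, annotation release or strand use. The deposited raw counts, made by the authors, were used, and the deposited normalized values were not. After 49 repeated rows with identical counts were dropped, 46333 genes remained.

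The main test on counts was the edgeR 4.0.16 quasi-likelihood test (genotype alone, TMM, filterByExpr, robust, Benjamini-Hochberg over 21542 genes, threshold 0.05), and with DESeq2 1.42.0 on 29539 genes with at least 1 count, adjusted p-values being left missing where DESeq2 gave none. Alternatives were RLE size factors, library totals, other low-count filters, limma-voom (limma 3.58.1), a replicate block, a vascular marker covariate and leaving out each library. Per-kilobase levels used merged GENCODE M39 exons, in which 16 of the 31 genes share exon bases with a gene on the other strand.

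All 31 genes are accounted for. Library values are given for genes with an unadjusted edgeR p under 0.05 or a DESeq2 call and for the highest per kilobase in each role, and up to 4 genes with the smallest p are named from each partner list. Members and lists were chosen with earlier results of these data known. No source used here explains the codes in the column headers. P-values set a genotype difference against the spread between libraries of the same genotype, of which there were 3 cre+ and 4 cre-.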

Additional observations from a re-analysis of the deposited data

How the results depend on the processing

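Over all genes edgeR called 0 higher and 0 lower at an adjusted p of 0.05, limma-voom also made no call among the 31 genes, and DESeq2 called 1095 higher and 895 lower, of which 4 and 7 were among the 31. At an unadjusted p under 0.05, edgeR gave 2205 higher and 2100 lower genes. No fold change among the 31 genes turned its sign with RLE size factors, library totals, other filters, DESeq2, limma-voom or the replicate block. Library totals moved the median log2 fold change of all genes by -0.12. They left 10 of the 11 DESeq2 calls (Sema3c was lost), with 13.6% of 16917 genes called, against 12.2% in the main DESeq2 fit. With these totals 5 partner genes were called higher and 10 lower, and 10 of the 31 genes were lower without overlap. The share of all tested genes without overlap was not computed for this scaling, so that last count has no background beside it. Correlations were 0.03, 0.02 and 0.05 between same-numbered libraries and -0.10 to 0.11 between differently numbered ones. These values cannot settle whether libraries were paired by litter or preparation. With the replicate block DESeq2 called 9 of the 31 (Sema4b and Plxna3 were lost) and 7 partner genes higher. Over all genes it called 7.37% of 20948 in that fit.

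With the endothelial and mural covariate, 0 of the 31 genes were higher and 4 lower at an unadjusted p under 0.05 (2.87% and 2.57% of all tested genes), DESeq2 called 0 of the 31 and 0 partner genes in either direction, and log2 fold changes turned sign in Plxna1 (-0.28), Plxnb2 (0.49), Plxnd1 (-0.33), Sema4c (-0.10), Sema5a (0.055), Sema6a (-0.28), Sema6d (-0.18) and, among 9 of the 53 partner genes, in the named Erbb2 (-0.074), Tiam1 (-0.011) and Kdr (-0.041). Leaving out 1 library at a time gave 0 to 3 higher and 0 to 2 lower genes over all genes with edgeR (3 and 2 without cre+ replicate 1), 4 to 8 higher and 7 to 8 lower of the 31 at an unadjusted p under 0.05, 3 to 5 higher and 4 to 7 lower with DESeq2 (4 lower without cre+ replicate 2), 3 to 7 higher and 6 to 10 lower without overlap, and 2 to 12 higher and 0 to 8 lower partner genes. Over all genes, DESeq2 called 4.71% (without cre+ replicate 1) to 14.2% (without cre- replicate 4), against 12.2% with all libraries. At an unadjusted edgeR p under 0.05 the share of all genes was 14.3% to 19.9%. Libraries did not overlap in 9.93% to 14.5% (higher) and 11.3% to 16.5% (lower) of all tested genes. DESeq2 called 7 of the 11 genes in all 7 of these fits, namely Nrp1, Sema3g, Sema4a, Sema4f, Sema5b, Sema6c and Sema7a. Calls gained were Sema3d without cre+ replicate 1, and Plxnd1 and Nrp2 without cre+ replicate 2. Signs turned in Plxnb2 (-0.18 to 0.11), Plxnb3 (-0.060 to 0.71), Sema3a (-0.71 to 0.27), Sema3b (-0.11 to 0.97), Sema4d (-0.55 to 0.0027) and Sema5a (-0.26 to 0.10), none of them called. The cause of these shifts was not tested.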

Other observations

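Some of the 31 genes varied more between libraries of a genotype than between genotypes. Sema3b had 35.1, 119 and 38.6 CPM in cre+ neurons, against 56.4, 36.5, 24.2 and 42.5 CPM in cre- neurons, so that cre+ replicate 2 alone was high. Plxnb3, a plexin of the oligodendrocyte lineage, had 19.7, 45.9 and 43.1 CPM in cre+ neurons, against 62.4, 15.4, 18.9 and 31.8 CPM in cre- neurons. Sema4d had 30.3, 63.1 and 53.1 CPM in cre+ neurons, against 98.7, 40.9, 52.9 and 52.5 CPM in cre- neurons. Both Plxnb3 and Sema4d were highest in cre- replicate 1, and within the cre+ libraries both were lowest in replicate 1. The 10 oligodendrocyte markers, none at 0, summed to 1016, 2276 and 2364 CPM in cre+ neurons, against 1604, 871, 1126 and 1131 CPM in cre- neurons, and were likewise highest in cre- replicate 1 and lowest in cre+ replicate 1 of their genotype. Other marker lists shared this. Oligodendrocyte precursor markers summed to 209, 427 and 390 CPM in cre+ and 481, 287, 286 and 339 CPM in cre- libraries. Neuron markers summed to 1443, 2333 and 2798 CPM in cre+ and 4459, 3480, 3440 and 2678 CPM in cre- libraries. Unlike Plxnb3 and Sema4d, the oligodendrocyte sums were higher in cre+ replicates 2 and 3 than in cre- replicate 1. The part of these cell types in the levels of Plxnb3 and Sema4d was not tested. Sema4d also shares 13.7% of its exon bases with Secisbp2 on the other strand.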
